A study of Homo sapiens with 6 samples.

Results

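The genes described here set or mark intestinal epithelium, and were followed by RNA sequencing in SW480, a long-established cell line from a human colorectal adenocarcinoma. They were taken by symbol: the transcription factors CDX1, CDX2, HNF4A, GATA6, SOX9 and ASCL2, the receptors EPHB2 and EPHB3, and the membrane protein gene CLRN3. All 9 of the 9 listed genes were in the table of 12982 genes, and all 9 passed the filter on low counts, which removed no gene. The cells, of wild-type genotype by their label, received either DMSO, the solvent, or MPM-1 (WT4 in the labels), a fluorescent probe that was made to reach mitochondria, for 24 h. Each treatment had 3 libraries. The dose used for sequencing is not given in the sources used here, and nothing there says whether the libraries of a treatment came from separate cultures, so the p-values below measure only the spread between these libraries. The comparison asks how the probe changed transcript levels in this line.

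In the gut, CDX1 and CDX2 are homeobox factors that give epithelium its intestinal character, and they work with the nuclear receptor HNF4A and the zinc finger factor GATA6 at the control regions of absorptive genes. At the crypt base, Wnt signalling through beta-catenin and TCF factors keeps stem and progenitor cells dividing, and SOX9, ASCL2, EPHB2 and EPHB3 are known targets of that signal. EPHB receptors meet ephrin-B ligands on the neighbouring cells that sort crypt from upper layers. CLRN3 encodes clarin 3, a small membrane protein of the clarin family.

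After MPM-1, 5 of the 9 genes fell and none rose at an adjusted p under 0.01 and a change of 1 or more on the log2 scale in either direction, the rule for a call. CLRN3 fell furthest, CDX2 next, and EPHB3, GATA6 and SOX9 fell to between 38.2% and 43.3% of their DMSO level. CDX1 stood just inside that fold limit and was not called, at 50.7% of its DMSO level. HNF4A and EPHB2 were at 74.1% and 74.5%, and ASCL2 was at 94.5% with overlapping libraries. Of all 12982 genes, 8.75% were called lower and 5.58% higher. At an adjusted p under 0.05 without a fold limit, 8 of the 9 genes were lower and none higher, against 28.8% and 27.7% of all genes. The 9 genes were chosen with earlier results of these data known, so these shares are descriptions and not a test of the group. The test was edgeR's quasi-likelihood test on the deposited counts, with Benjamini-Hochberg adjustment over all genes. DESeq2 also called 0 of the 9 genes higher, and 0 were higher at an unadjusted p under 0.05 in edgeR, since all 9 changes were negative.

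Upstream sequences of CLRN3 and HNF4A are shown because they belong to the gene that fell furthest and to a gene whose transcript length, as used for its FPKM, differed between libraries (given further on). They are the letters just before the annotated transcript start, from RefSeq on GRCh38.p14, read 5′ to 3′ on the strand of the gene and ending before any exon of GENCODE release 29. The CLRN3 stretch is chr10:127892948-127893191 on the minus strand. Capitals mark CAAAGT, the core letters of HNF4 sites, and TTTATG, core letters of CDX sites.
CLRN3: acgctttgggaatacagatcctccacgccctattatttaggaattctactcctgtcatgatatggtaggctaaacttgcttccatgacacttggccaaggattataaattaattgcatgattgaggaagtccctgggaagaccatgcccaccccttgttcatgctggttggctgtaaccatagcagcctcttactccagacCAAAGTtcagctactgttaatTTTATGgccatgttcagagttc

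HNF4A is read from a distal start and, further into the gene, from a proximal start. The distal stretch is chr20:44355449-44355698 and the proximal one chr20:44400989-44401238, both on the plus strand. Capitals mark AGATAA, the core of GATA sites, and CAGCTG, an E-box, which is the kind of site bound by ASCL2 and other basic helix-loop-helix factors.
HNF4A distal: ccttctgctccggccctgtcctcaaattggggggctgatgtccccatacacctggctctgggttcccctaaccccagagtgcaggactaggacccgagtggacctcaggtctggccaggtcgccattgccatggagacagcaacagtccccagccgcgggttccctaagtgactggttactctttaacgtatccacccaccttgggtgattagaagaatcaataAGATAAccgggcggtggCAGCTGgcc
HNF4A proximal: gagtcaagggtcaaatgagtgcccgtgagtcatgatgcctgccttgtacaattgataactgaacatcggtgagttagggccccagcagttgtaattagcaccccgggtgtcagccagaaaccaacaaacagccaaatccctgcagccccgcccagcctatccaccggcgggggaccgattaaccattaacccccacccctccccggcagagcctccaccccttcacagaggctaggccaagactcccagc

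In all, 6 of the 9 genes have a promoter window of 300 bases in that table, 250 before the start and 50 after it. These are CDX2, HNF4A, GATA6, EPHB2, EPHB3 and CLRN3. The TCF/LEF core CTTTGA and the other motifs were searched on both strands, and none of the 5 motifs overlapped another in these windows. CTTTGA was found in 1 of the 6 genes, CDX2, at position -238 from the RefSeq start, and in 8.51% of the windows of measured genes. That CDX2 window, chr13:27969266-27969565 on the minus strand, lies inside the GENCODE span of the gene given below. AGATAA was found in CDX2 and in the distal window of HNF4A, and in 4.63% of measured genes. CAGCTG was found in GATA6, EPHB3 and the distal window of HNF4A, and in 16.7% of measured genes. TTTATG and CAAAGT were both found in CLRN3 alone among the 6, at positions -28 and -49, and in 4.95% and 7.54% of measured genes. EPHB2, whose transcript length as used for FPKM differed more than that of HNF4A, held none of the 5 motifs and is not shown. These are matches of 6 letters and say nothing of binding.

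CDX2 (ENSG00000165556) lies on the minus strand of chromosome 13, from 27962137 to 27971139 on GRCh38 in GENCODE release 29, as do the coordinates that follow. Its level in CPM, which is the count scaled to a common library size with edgeR's TMM factors, was 79.1, 86.1 and 82.2 in DMSO replicates 1, 2 and 3. After MPM-1 it was 13.0, 19.9 and 20.9 CPM in replicates 1, 2 and 3. The highest MPM-1 library was thus far below the lowest DMSO library, and MPM-1 replicate 1 was the lowest of all. The means were 82.5 ± 3.51 and 17.9 ± 4.33 CPM (SD, n = 3). On the log2 scale CDX2 changed by -2.20 (standard error 0.16, edgeR adjusted p = 5.29e-06). Of all genes tested, 214 had a lower log2 fold change. In a culture measured in bulk, fewer cells that express a gene and less of its RNA per cell cannot be told apart.

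CDX1 (ENSG00000113722, chromosome 5, 150166795 to 150184558, plus strand), the close relative of CDX2, was the most even gene of the 9 in DMSO. It had 106.7, 105.6 and 104.2 CPM there and 51.4, 51.2 and 57.8 CPM after MPM-1. The libraries of the treatments lay far apart. Its log2 fold change was -0.98, with a 95% confidence interval of -1.15 to -0.81 (edgeR adjusted p = 9.20e-06), so the fold limit and not the p-value kept it from being called. It was called with scaling by library size alone, at -1.13, without MPM-1 replicate 3, at -1.02, and with limma on log2(FPKM + 0.1), at -1.13.

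The pair was then compared within each library, where no scaling enters. The log2 ratio of CDX1 to CDX2 counts was 0.43, 0.29 and 0.34 in the DMSO libraries. It was 1.99, 1.37 and 1.46 in the MPM-1 libraries, all above all DMSO values. The mean ratio differed by 1.25 on the log2 scale, or 2.38-fold (two-sided exact permutation test, p = 0.1, the smallest that 3 libraries against 3 can give, and 0.1 after adjustment over the 2 pairs compared). CDX1 and CDX2 thus fell by unequal amounts in these libraries, though this design cannot bring such a test under 0.05.

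GATA6 (ENSG00000141448, chromosome 18, 22169443 to 22202528, plus strand), which takes part in enterocyte maturation and in crypt proliferation, had 79.8, 82.9 and 77.7 CPM in DMSO. It had 25.1, 37.8 and 36.8 CPM after MPM-1. As with CDX2, replicate 1 was the lowest of the MPM-1 libraries. Its log2 fold change was -1.27 (standard error 0.14, edgeR adjusted p = 6.06e-05). Exons of GATA6 overlap those of the antisense genes GATA6-AS1 and AC091588.3, which were not in the table, and whether the counting used strand is not given in the sources used here.

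HNF4A (ENSG00000101076, chromosome 20, 44355700 to 44434596, plus strand) is a nuclear receptor that maintains absorptive gene expression. It had 32.4, 35.2 and 31.9 CPM in DMSO and 25.2, 22.8 and 25.8 CPM after MPM-1. The groups did not overlap, but the distance between them was small beside that of CDX2. Its log2 fold change was -0.43 (95% confidence interval -0.64 to -0.22, edgeR adjusted p = 0.00331), under the fold limit.

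SOX9 (ENSG00000125398, chromosome 17, 72121020 to 72126420, plus strand), a high-mobility-group factor of crypt progenitors and Paneth cells, had 128.3, 130.2 and 123.0 CPM in DMSO. It had 46.0, 59.3 and 59.7 CPM after MPM-1. The lowest value was again that of MPM-1 replicate 1. The log2 fold change was -1.21 (standard error 0.11, edgeR adjusted p = 1.62e-05).

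ASCL2 (ENSG00000183734, chromosome 11, 2268495 to 2270952, minus strand), a master factor of intestinal stem cells, did not pass the test. It had 9.64, 9.70 and 13.2 CPM in DMSO and 8.73, 9.66 and 12.4 CPM after MPM-1. The treatments overlapped almost fully, and replicate 3 was the highest library of both. Its log2 fold change was -0.08 with a 95% confidence interval of -0.51 to 0.35 (edgeR adjusted p = 0.74). A change within those bounds was not excluded here, and the sign turned positive in the fits that omit DMSO replicate 3 (0.086) or MPM-1 replicate 1 (0.038).

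The receptors gave different values. EPHB3 (ENSG00000182580, chromosome 3, 184561784 to 184582409, plus strand), an ephrin-B receptor tyrosine kinase of crypt cells, had 41.0, 39.3 and 39.2 CPM in DMSO and 15.3, 14.5 and 15.9 CPM after MPM-1. The spread within each treatment was small beside the distance between them. The log2 fold change was -1.39 (standard error 0.09, edgeR adjusted p = 2.96e-06). EPHB2 (ENSG00000133216, chromosome 1, 22710839 to 22921500, plus strand), its relative, had 45.5, 50.6 and 47.3 CPM in DMSO and 34.5, 33.0 and 39.3 CPM after MPM-1. The groups did not overlap, and the log2 fold change of -0.43 (95% confidence interval -0.63 to -0.22, edgeR adjusted p = 0.00358) was under the fold limit.

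Within libraries, the log2 ratio of EPHB2 to EPHB3 counts was 0.15, 0.36 and 0.27 in DMSO and 1.18, 1.18 and 1.31 after MPM-1. The 3 MPM-1 ratios were all higher, by 0.96 on the log2 scale or 1.94-fold (two-sided exact permutation test, p = 0.1, again the smallest possible, and 0.1 adjusted over the 2 pairs). EPHB3 was thus lower relative to EPHB2 in every MPM-1 library than in any DMSO library.

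CLRN3 (ENSG00000180745, chromosome 10, 127877841 to 127892947, minus strand) was the least abundant of the 9 genes and changed most. It had 119, 274 and 304 counts in the DMSO libraries, or 3.61, 6.34 and 7.63 CPM. After MPM-1 it had 6, 13 and 4 counts, or 0.197, 0.423 and 0.119 CPM. A count of 0 would allow 3 counts, or up to 0.0985 CPM in the shallowest scaled library, so the MPM-1 values sit near the lower limit of what this depth can measure. The log2 fold change was -4.57 with a 95% confidence interval of -5.61 to -3.53 (edgeR adjusted p = 3.83e-05), and 8 of the 12982 genes had a lower one. It ranged from -5.17 to -4.21 with each library left out in turn.

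**Figure D1:**
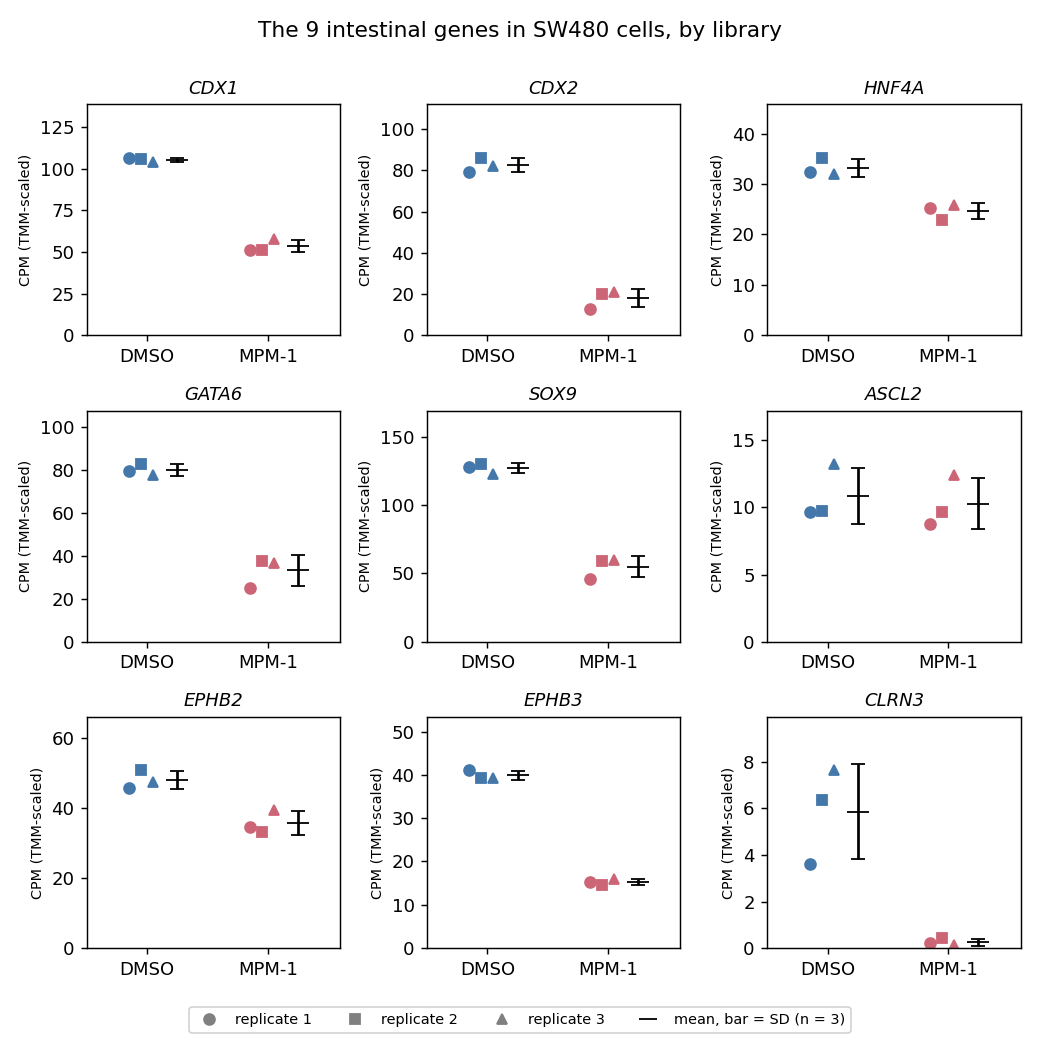
Level of each of the 9 genes in CPM (TMM-scaled, linear axes from 0) in the 3 DMSO and the 3 MPM-1 libraries, with the marker shape giving the replicate and black bars the mean and SD. In every gene but ASCL2 the MPM-1 libraries lie below the DMSO libraries.

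In 8 of the 9 genes all 3 MPM-1 libraries lay below all 3 DMSO libraries in CPM, as they did in 33.3% of all genes tested. The exception was ASCL2. The median log2 fold change of the 9 genes was -1.21 beside -0.026 over all genes tested, again a description of genes chosen with earlier results known. With each library left out in turn, CDX2, EPHB3, GATA6, SOX9 and CLRN3 stayed called in all 6 fits. Their log2 fold changes ranged from -1.40 to -1.33 for EPHB3, from -1.35 to -1.09 for GATA6 and from -1.26 to -1.08 for SOX9, and the lowest for CDX2 was -2.31.

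**Figure D2:**
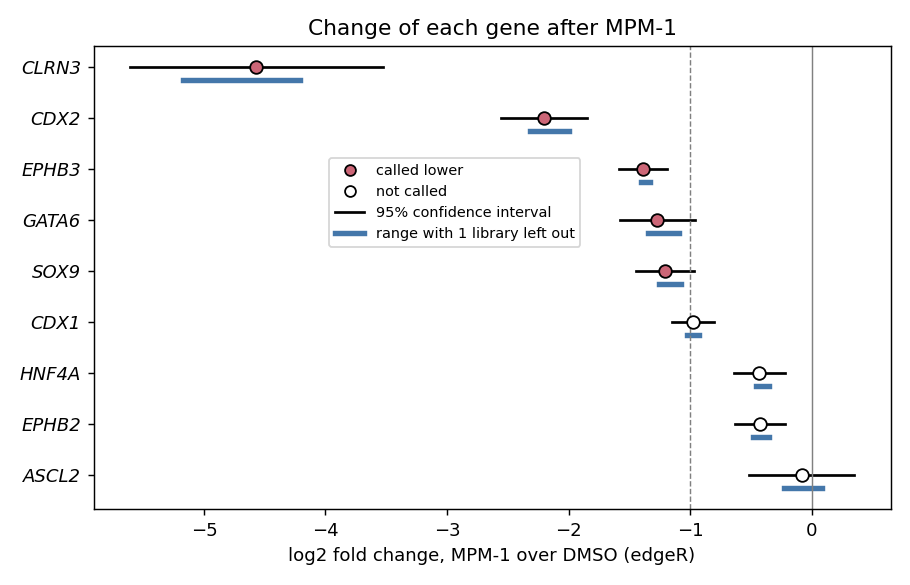
Log2 fold change of each gene after MPM-1 from edgeR, with its 95% confidence interval (black) and the range of the 6 fits that leave out 1 library (blue). Filled points were called lower, the dashed line is the fold limit of -1, and CDX1 at -0.98 lies just inside it.

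Levels of different genes can be compared only per transcript length, for which the FPKM of the deposited table were used (fragments scaled to transcript length in kilobases and to library size). In DMSO, CDX1 was highest at 61.2 ± 0.772 FPKM, followed by SOX9 at 33.0 ± 1.07 (SD, n = 3). GATA6 at 21.8 ± 0.994 and CDX2 at 20.8 ± 1.24 FPKM came next, and their libraries overlapped. EPHB3 stood at 9.60 ± 0.061 FPKM, above HNF4A at 8.28 ± 1.23 in all libraries. HNF4A, EPHB2 (7.80 ± 1.10), ASCL2 (5.98 ± 1.20) and CLRN3 (5.20 ± 1.90) each overlapped the next in that order. After MPM-1 the order below GATA6 was another. CDX1 (27.9 ± 1.97), SOX9 (12.9 ± 2.03) and GATA6 (8.18 ± 1.87 FPKM) kept the top places, with EPHB2 (6.73 ± 2.13), ASCL2 (5.08 ± 0.963) and HNF4A (5.05 ± 0.352) after them, overlapping from GATA6 down to HNF4A. CDX2, at 4.07 ± 1.03 FPKM, had moved below HNF4A, and it overlapped EPHB3 at 3.30 ± 0.125. CLRN3 was last at 0.189 ± 0.127 FPKM. The CDX1 level was between 2.83 and 3.11 times the CDX2 level in the DMSO libraries and between 5.94 and 9.16 times in the MPM-1 libraries, both in FPKM. In FPKM, EPHB2 was between 0.716 and 0.945 times EPHB3 in the DMSO libraries and between 1.37 and 2.50 times in the MPM-1 libraries. The transcript length used for EPHB2 differed between libraries, as given below.

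**Figure D3:**
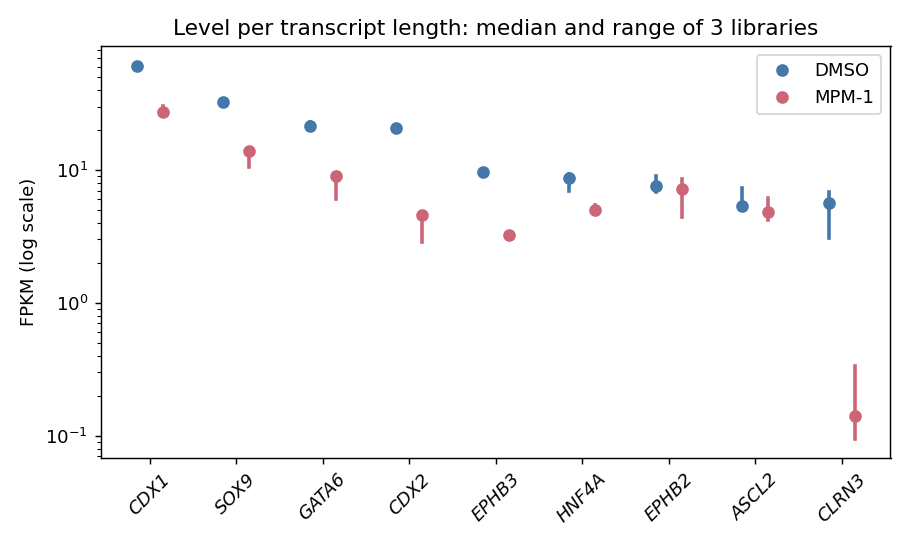
FPKM of the 9 genes on a log axis, as the median (point) and range (line) of 3 libraries per treatment, ordered by the DMSO mean. The CDX2 median goes from 20.9 FPKM beside GATA6 to 4.59 FPKM, while EPHB2 and ASCL2 overlap between treatments on this scale.

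The FPKM also carried information that the counts did not. The count divided by the FPKM, corrected for the library, gives the transcript length that the authors' program used in that library. This length term was nearly fixed for CDX1, CDX2, SOX9, ASCL2, EPHB3 and GATA6, where its highest value was between 1.00 and 1.01 times its lowest. GENCODE lists at most 2 coding transcripts for each of these. In EPHB2, with 5 coding transcripts of 1709 to 10816 bases, the highest value was 1.82 times the lowest, a wider range than in 97.8% of 12887 genes. In HNF4A, with 8 coding transcripts of 540 to 6445 bases, it was 1.37 times the lowest, wider than in 91.3%. CLRN3, with 1 coding transcript, had a ratio of 1.10, and its MPM-1 values rest on 4 to 13 counts.

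For EPHB2 the term varied within both treatments, and its lowest values were those of 2 MPM-1 libraries. It was 213, 268 and 191 counts per FPKM in DMSO replicates 1 to 3 and 153, 247 and 148 in MPM-1 replicates 1 to 3. In both treatments replicate 2 was highest. The treatments overlapped, since MPM-1 replicate 2 lay above DMSO replicates 1 and 3. The EPHB2 level was 7.52, 6.87 and 9.01 FPKM in DMSO and 7.18, 4.41 and 8.60 FPKM after MPM-1, which overlap. On log2(FPKM + 0.1), where limma is the test, its log2 fold change was -0.25 (adjusted p = 0.37), so the difference seen in counts was lost. FPKM are scaled by library size without TMM factors, and counts scaled in that way gave -0.58 for EPHB2 in edgeR. For HNF4A, DMSO replicate 1 stood apart at 122 counts per FPKM, while the other libraries had 149 to 168. Its level was 9.29, 8.64 and 6.91 FPKM in DMSO and 4.97, 4.75 and 5.44 FPKM after MPM-1, and limma gave -0.69 (adjusted p = 0.00264), beside -0.58 in edgeR for counts scaled by library size alone and -0.43 with TMM. Which transcripts of EPHB2 and HNF4A were present was not tested.

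**Figure D4:**
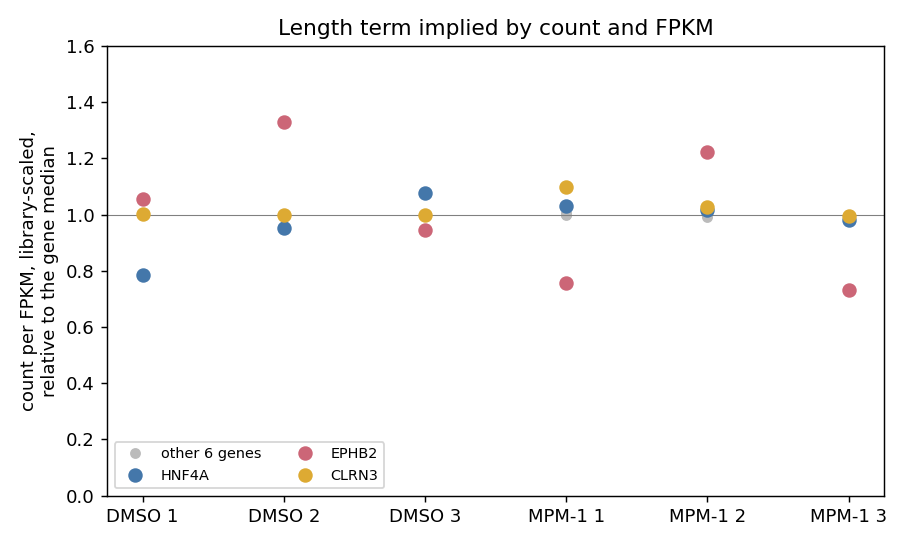
Count per FPKM, corrected for each library and divided by the median of the gene, in the 6 libraries. EPHB2 (red) varies 1.82-fold and HNF4A (blue) 1.37-fold between libraries, CLRN3 (yellow) 1.10-fold, and the 6 genes in grey stay near 1.

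The other genes of the same biology were read from lists written from general knowledge, with earlier results of these data known. For these lists the counts of called genes are descriptions. Of 30 further intestinal transcription factors and regulators, 23 were tested, of which 5 were called lower and 2 higher, with a median log2 fold change of -0.19. Among those called lower were ISX, a homeobox gene that CDX2 is known to activate (-3.96, from 12.2 ± 2.84 to 0.781 ± 0.115 CPM), and HOXB13 of the hindgut (-2.44). Higher were ELF3, an epithelial ETS factor (1.58), and ESRP1, an epithelial splicing factor (13.5 to 30.0 CPM). CDX2 and ISX both fell, whereas ELF3 rose from 53.3 ± 5.92 to 158.8 ± 14.2 CPM.

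Of 30 crypt and stem cell markers, 21 were tested, and 10 were called lower and none higher, with a median of -1.05. In edgeR, 2 higher genes had an unadjusted p under 0.05, and DESeq2 called 0 higher and 11 lower. AXIN2, a feedback inhibitor of Wnt signalling, changed by -2.94, ALDH1A1, a retinal dehydrogenase, by -1.84, and MYC by -1.64. LGR5, the best known stem cell marker, chosen after its values were seen, went from 3.09 to 0.917 CPM and was not called (-1.75, edgeR adjusted p = 0.0177). TCF7, a TCF factor of the Wnt pathway, also chosen after its values were seen, was higher without reaching the fold limit (0.67, edgeR adjusted p = 0.000513). SOX9 and EPHB3 were called lower as 10 of these 21 genes were, while ASCL2 did not pass.

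Of 18 other Eph receptors and ephrins, 12 were tested and none was called by edgeR in either direction, with a median of -0.10. At an unadjusted p under 0.05, 3 were higher and 4 lower, and DESeq2 called 1 higher and 0 lower. EFNA1, an ephrin-A ligand chosen after its values were seen, stood just inside the fold limit at 0.996 (edgeR adjusted p = 4.39e-05). In edgeR, 1 gene of the list was called higher with DESeq2 size factors and in the fits without DMSO replicate 1, DMSO replicate 3, MPM-1 replicate 1 or MPM-1 replicate 2. With scaling by library size alone or with limma on log2(FPKM + 0.1), 2 were called lower. The ephrin-B ligands of EPHB2 and EPHB3 that were tested, chosen after their values were seen, were EFNB1, at 131.7 and 229.3 CPM in DMSO and MPM-1 (log2 fold change 0.80, edgeR adjusted p = 8.16e-05), and EFNB2, at 54.7 and 70.1 CPM (0.36, edgeR adjusted p = 0.192).

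Absorptive and brush border genes, among which are known targets of CDX2 and HNF4A, went both ways. Of 42, 22 were tested, with 9 called lower and 3 higher and a median of -0.40. APOA1, an apolipoprotein made by enterocytes, changed by -3.14, ALPG, a placental-like alkaline phosphatase, by -3.12, and KRT20, a keratin of differentiated colon cells, by -2.03. ALPG shares sequence with other alkaline phosphatase genes, so its reads could be divided among them. ALPI, the intestinal alkaline phosphatase of the same list, was called lower with a smaller change (-1.16, from 40.2 to 18.0 CPM). Higher were EZR, the brush border linker ezrin (1.32), CEACAM6 (1.31) and CDHR5, a brush border protocadherin (1.14), and with scaling by library size alone only 1 gene of the list was called higher.

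**Figure D5:**
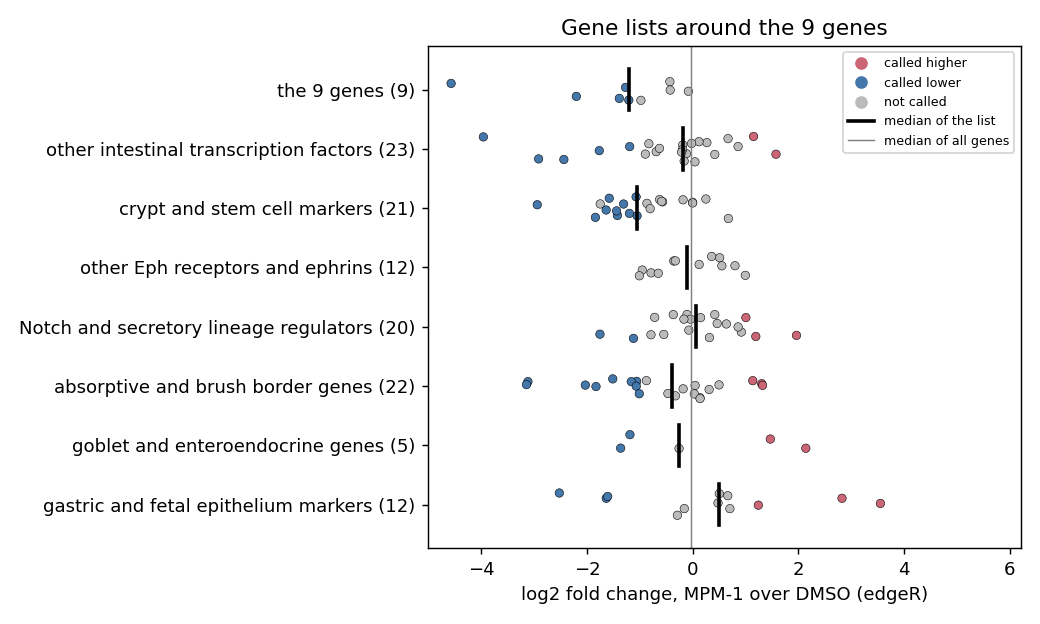
Log2 fold change of the 9 genes and of the tested genes of 7 lists, 1 point per gene, coloured by call, with the list's median (black bar) and the median of all genes (grey line). The 9 genes have a median of -1.21 and the crypt markers of -1.05, with 19 of 21 crypt markers below 0.

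The cells were checked against their label by 10 markers of colorectal epithelium, of which 8 were tested and GPA33 and CEACAM5 were not in the table. Their summed level was 8732 to 10177 CPM in DMSO and 12844 to 14469 CPM after MPM-1, of which the keratins KRT8, KRT18 and KRT19, shared by many simple epithelia, made up the larger part. None of the 8 was called by edgeR or DESeq2, and 1 was called lower with scaling by library size alone. At an unadjusted p under 0.05 in edgeR, 5 were higher and 2 lower. EPCAM, the epithelial adhesion molecule, had 676.0 and 675.6 CPM in DMSO and MPM-1. The lower ones were VIL1, the brush border protein villin (-0.88, edgeR adjusted p = 1.72e-05), and CDH17, an intestinal cadherin (-0.47, edgeR adjusted p = 0.00274). Both were still above 100 CPM on average after MPM-1. LGALS4, also an intestinal marker of the list, was higher, at 441.0 and 623.0 CPM in DMSO and MPM-1 (0.50, edgeR adjusted p = 0.000556). The intestinal markers thus went both ways. Of 20 markers of other cell types 7 were tested, and the leukocyte marker PTPRC and the endothelial markers PECAM1, VWF and CDH5 were not in the table. The summed level of the 7 was 129.3 to 168.8 CPM in DMSO and 161.7 to 176.5 CPM after MPM-1, and its part in the change of the 9 genes was not tested.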

How the data were processed

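RNA was sequenced from SW480 cells with DMSO or MPM-1 for 24 h, in 3 libraries per treatment. The authors deposited 1 table with whole-number counts, not normalised, and FPKM values scaled by them for transcript length and library size. The labels name HISAT2, DESeq2 and the mouse build mm10, although the gene identifiers are human. The counter, annotation and filter are not given in the sources used here. The log2 fold changes and adjusted p-values that the authors deposited for the same comparison were not used. Total counts were 31733667 to 40269820 per library, and libraries of one treatment differed beyond counting noise (chi-square per gene of 15.4 to 33.2), so none was a repeat deposit. Every gene had at least 115 counts in all, so rarer genes were not analysed here. The 95% confidence intervals of edgeR include the spread between libraries, and the limit for a count of 0 covers counting error only.

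edgeR 4.0.16 in R 4.3.3 was run on the counts of all genes (TMM, filterByExpr, which removed none, quasi-likelihood test, no covariates), with DESeq2 1.42.0 and limma 3.58.1 (log2 of FPKM plus 0.1, 1 or 0.01, only genes whose mean FPKM was 1 or more) as alternatives. The standard error is the log2 fold change divided by the square root of the F statistic. In simulated counts of 12982 genes, the test recovered 100 of 100 genes changed by 1.5 and 100 of 100 changed by 2 on the log2 scale for this comparison. The simulation gave every gene the same dispersion and changed only genes above a minimum mean count. Changes below 1.5, such as those of EPHB3, GATA6, SOX9 and CDX1, were not simulated, so recovery near the fold limit is not known. Ratios within a library used counts plus 0.5. The genes and lists were chosen with earlier results of these data known. The genes named from a list are the called ones, up to 3 in each direction by size of change, except 1 that is not reported here. LGR5, TCF7, EFNA1, EFNB1, EFNB2, EPCAM, VIL1, CDH17, LGALS4, HES1, NRARP, ALPI and the keratins were named after their values were seen. Coordinates and transcripts are from GENCODE release 29.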

Additional observations from a re-analysis of the deposited data

How the results depend on the processing

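The number of the 9 genes called lower was 5 in the reported fit and 8 with an adjusted p under 0.05 or under 0.01 without a fold limit. It was within 1.5 times of 5, and none was called higher, under every other alternative tried (DESeq2 size factors, library size alone, no filter, only genes averaging 50 counts or more, the test of DESeq2, limma on FPKM, each library left out in turn). The fit with no filter could not differ from the reported one, because the filter removed no gene. ASCL2 changed sign without DMSO replicate 3 and without MPM-1 replicate 1, within a range of -0.23 to 0.086 for the fits that leave out 1 library, and the cause was not tested. CLRN3 changed by -2.34 with limma on log2(FPKM + 1), since a pseudocount of 1 is larger than its MPM-1 level. Scaling by library size alone shifted the median change over the whole table (log2) from -0.026 to -0.18, with 537 genes called higher and 1470 lower, and the median of the 9 genes to -1.36. With limma on log2(FPKM + 0.1), 445 were called higher and 1095 lower, and with a pseudocount of 1, 351 and 716. The replicate numbers are shared by the treatments in the labels, but nothing there pairs them. The deviations of same-numbered libraries correlated at 0.021, 0.11 and -0.074, and not every library correlated best with its own number. With the replicate block, 712 genes were called higher and 1120 lower, in place of 725 and 1136, and the 5 called genes here stayed 5. The paired differences of the log2 ratios were 1.25 for CDX1 to CDX2 and 0.96 for EPHB2 to EPHB3. With 3 libraries per treatment these equal the unpaired differences by arithmetic, so they are no further check. CLRN3 is limited by depth, with 4 to 13 counts after MPM-1.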

Other observations

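Genes of other epithelial identities went both ways. Of 18 gastric and fetal epithelium markers 12 were tested, 3 called higher and 3 lower, with a median log2 fold change of 0.49. ANXA1, a calcium-dependent membrane binding protein that marks fetal-like and injured gut epithelium, rose from 44.2 ± 6.92 to 517.5 ± 67.3 CPM (SD, n = 3), a log2 fold change of 3.55. KRT7 rose by 2.82 and TFF2, a gastric trefoil peptide, by 1.24, while IL33 (-2.52), LY6D (-1.63) and KRT13 (-1.61) fell. Of 22 goblet and enteroendocrine genes 5 were tested. AGR2, an endoplasmic reticulum protein needed to make mucin, rose by 2.14 and TFF3 by 1.47, whereas MUC5B (-1.36) and REG4 (-1.19) fell. The median of these 5 was -0.26 and turned to 0.43 over the 4 kept by limma on log2(FPKM + 0.1).

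Of 26 Notch and secretory lineage regulators 20 were tested, with 3 called higher and 2 lower, and a median of 0.055 that became -0.094 with scaling by library size alone, -0.074 without DMSO replicate 3 and -0.042 without MPM-1 replicate 1. HEY1, a Notch target, rose by 1.96, from 0.515 to only 2.04 CPM, XBP1 of secretory cells by 1.19 and HES4 by 1.01. The Notch targets HES1 (-0.55, edgeR adjusted p = 0.00473) and NRARP (-0.79, edgeR adjusted p = 0.00107) were lower without reaching the fold limit. At an adjusted p under 0.05 without a fold limit, 7 genes of the list were higher and 4 lower in edgeR. SPDEF, a goblet cell factor, fell by 1.75 on the log2 scale and NOTCH3 by 1.12. With the replicate block, 1 gene of this list was called higher, as without DMSO replicate 2 or MPM-1 replicate 1. The count called lower went from 2 to 0 without DMSO replicate 1 and to 1 without DMSO replicate 2, MPM-1 replicate 1 or MPM-1 replicate 3. Of the 7 tested markers of other cell types 3 were called lower, namely DES (-3.13), COL1A1 (-2.07) and CD14 (-1.34), and CD68, a lysosomal protein of macrophages that other cells also make, rose by 1.08. Of these, 1 was called lower without DMSO replicate 2 or DMSO replicate 3 and 2 without DMSO replicate 1 or MPM-1 replicate 3, and 0 were called higher without DMSO replicate 3, with library size alone or with limma on FPKM.

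The 5 genes whose log2 CPM over the 6 libraries, centred on the mean of each gene, lay nearest to CLRN3 were GJB1, ISX, METTL7A, TXNIP and TLX1, at distances of 0.66 to 1.37 beside a median of 5.46 over 12981 genes. These distances are descriptions over 6 libraries that mainly hold 1 difference, between the treatments. After MPM-1, GJB1, TLX1 and METTL7A averaged 0.043, 0.065 and 0.12 CPM, near the lower limit of what this depth can measure. ISX and TXNIP averaged 0.781 and 9.72 CPM. ISX, the second nearest, is also on the list of intestinal transcription factors.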
